A study of Mus musculus with 12 samples.

Results

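The genes described here encode membrane carriers of neurotransmitters, amino acids and organic ions. They were chosen by symbol: every gene of the regularized log table whose name begins with Slc6a, Slc22a or Slco followed by a digit. The rule found 62 of 34677 genes, of which 26 belong to Slc22, 21 to Slc6 and 15 to Slco, and used no measured value. Of these, 60 are annotated as protein coding, and Slc22a13b-ps and Slco6b1 are annotated as pseudogenes. RNA was sequenced from cortical (cTEC) and medullary (mTEC) thymic epithelial cells sorted from wild-type (WT) mice and from Aβ0/0 mice, which lack the beta chain of MHC class II, with 3 libraries in each of 4 groups. Each replicate came from a pool of 5 to 10 mice aged from 4 to 6 weeks, and cTEC were sorted as Ly51+UEA1- and mTEC as Ly51-UEA1+ cells within the EpCam+CD45- gate. Aβ0/0 mice lack the class II molecule in every tissue and not in TEC alone, so that changes in thymocytes of the same mice are part of the model. For each pool the study lists fewer sorted cTEC and mTEC in Aβ0/0 than in WT, so that cell number and genotype cannot be told apart.

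Slc6 carriers use the sodium and chloride gradients to bring neurotransmitters, amino acids and osmolytes into cells, and they end signalling at synapses. Slc22 carriers move organic cations, carnitine and organic anions in liver, kidney and intestine, and Slco carriers take up bile acids, thyroid hormones, prostaglandins and drugs. Most are known for expression in 1 or a few peripheral tissues, and mTEC are known for transcribing at low level a large share of such tissue-restricted genes, in part under control of Aire.

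The libraries held 21710319 to 36139815 estimated counts. The targeted gene H2-Ab1 lay at 9055 to 9640 TPM (counts scaled for transcript length and library total) in WT cTEC against 3153 to 3956 in Aβ0/0 cTEC. In mTEC it lay at 11510 to 11970 in WT against 2469 to 3541 in Aβ0/0. The summed TPM of 9 mTEC markers was 17920 to 33600 in mTEC and 2480 to 5210 in cTEC, and that of 8 cTEC markers was 4026 to 12390 in cTEC and 332 to 839 in mTEC. Other cell types differed between the groups. The 7 fibroblast and mural markers summed to 1660 to 2583 TPM in cTEC and 223 to 420 in mTEC, and the 10 thymocyte markers to 243 to 756 in cTEC and 26.4 to 147 in mTEC. In mTEC, the 6 granulocyte markers summed to 1382 to 1961 TPM in WT, where all 6 were above 3 counts in each library, and to 187 to 421 in Aβ0/0, where 4 were. The 5 enterohepatic markers summed to 305 to 402 in WT and 101 to 296 in Aβ0/0. In WT cTEC, granulocyte and enterohepatic markers summed to 24.1 to 462 and 6.21 to 16.5 TPM. The 9 dendritic, macrophage and B cell markers summed to 613 to 669 in WT mTEC and 53.1 to 356 in WT cTEC. The part of these cell types in differences between subsets was not tested.

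Promoters were available for 49 of the 62 members in RefSeq's table (GRCm38.p6), each running from 250 bases before to 50 after a transcription start. The 4 printed here are those of Slc22a20 and Slc6a11, which were seen in WT mTEC alone, and of the copies Slc6a20a and Slc6a20b, which differed widely in level in mTEC. All are written 5′ to 3′ on the strand of the gene, and capitals mark CG pairs. They lie at chr19:5986094-5986393 (minus strand), chr6:114130991-114131290 (plus strand), chr9:123678783-123679082 (minus strand) and chr9:123632489-123632788 (minus strand), in this order.
Slc22a20: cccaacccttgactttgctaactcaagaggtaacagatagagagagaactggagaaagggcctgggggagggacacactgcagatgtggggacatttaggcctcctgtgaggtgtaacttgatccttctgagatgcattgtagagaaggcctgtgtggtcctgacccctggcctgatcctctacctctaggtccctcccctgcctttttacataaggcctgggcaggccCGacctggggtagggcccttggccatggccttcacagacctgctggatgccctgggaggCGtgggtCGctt
Slc6a11: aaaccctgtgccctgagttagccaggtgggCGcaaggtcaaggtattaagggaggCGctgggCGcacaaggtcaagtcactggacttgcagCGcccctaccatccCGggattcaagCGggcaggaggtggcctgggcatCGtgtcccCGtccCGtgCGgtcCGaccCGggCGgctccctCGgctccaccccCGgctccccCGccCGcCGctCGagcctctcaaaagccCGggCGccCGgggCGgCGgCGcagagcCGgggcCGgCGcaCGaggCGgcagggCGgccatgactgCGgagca
Slc6a20a: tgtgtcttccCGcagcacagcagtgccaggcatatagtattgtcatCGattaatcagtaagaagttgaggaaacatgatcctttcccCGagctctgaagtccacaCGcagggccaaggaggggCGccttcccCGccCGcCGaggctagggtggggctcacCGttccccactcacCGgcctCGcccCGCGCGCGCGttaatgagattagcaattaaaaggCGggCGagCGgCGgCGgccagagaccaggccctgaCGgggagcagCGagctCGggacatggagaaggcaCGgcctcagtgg
Slc6a20b: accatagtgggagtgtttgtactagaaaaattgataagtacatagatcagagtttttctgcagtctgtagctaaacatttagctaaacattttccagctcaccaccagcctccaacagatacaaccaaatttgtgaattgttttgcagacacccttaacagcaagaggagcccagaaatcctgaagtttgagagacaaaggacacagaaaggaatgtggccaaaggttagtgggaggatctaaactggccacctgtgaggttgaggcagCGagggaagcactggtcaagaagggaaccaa
The stretches of Slc22a20 and Slc6a20b held 3 and 1 CG pairs, and those of Slc6a11 and Slc6a20a held 32 and 25. Thus the 2 genes seen in WT mTEC alone did not share this feature of sequence. Over the 49 promoters of the members the median was 5 CG pairs, against 7 over all 32851 promoters in the table. The 13 promoters of members found in all 12 libraries had a median of 12, and the 7 of the members that passed the test between WT and Aβ0/0 mTEC, described below, had a median of 5. TATAAA, searched on both strands, was in 12.2% of the members' promoters and in 13.6% of all, and GGGCGG, likewise, in 32.7% and 35.7%. These letters do not show that a factor binds.

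A member was counted as detected in a library above 3 estimated counts, since a count of 0 is compatible with up to 3. WT mTEC held the most members, with 54, 54 and 57 of 62 in replicates 1, 2 and 3. Aβ0/0 mTEC held 37, 32 and 36, WT cTEC 35, 32 and 32, and Aβ0/0 cTEC 29, 28 and 26. Thus every WT mTEC library held more members than any library of the other groups. The means were 55 ± 1.73 in WT mTEC and 35 ± 2.65 in Aβ0/0 mTEC (SD, n = 3; two-sided exact permutation p = 0.1, the smallest that 3 against 3 allows, and 0.213 adjusted over the 64 such tests made). With all libraries thinned to the same total, they were 54 ± 1 and 34.3 ± 2.52 (SD, n = 3; exact permutation p = 0.1). In cTEC they were 33 ± 1.73 in WT and 27.7 ± 1.53 in Aβ0/0 (SD, n = 3; exact permutation p = 0.1). The same count over all genes was 1.26 times higher in WT than in Aβ0/0 mTEC, against 1.57 times for the members, and this difference in ratio was not tested. In bulk libraries, fewer cells that express a gene and less RNA per cell cannot be told apart.

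Of the 62 members, 21 were detected in all 12 libraries, and 11 were detected in 1 or more WT mTEC libraries and in no other. Among them were Slc22a2, Slc22a6, Slc22a8, Slc22a12, Slc22a16, Slc22a20, Slc22a27 and Slc22a28, known from liver, kidney, testis or the olfactory lining, as well as Slc6a11 and Slco1c1. Slc22a28 is 98.75% identical to Slc22a30 over its aligned bases, and Slc22a27 is 96.8% identical to Slc22a29. Both of these copies were detected in Aβ0/0 mTEC too. Slc22a12 shares 682 bases with Nrxn2. Detection in WT mTEC alone is thus uncertain for Slc22a12, Slc22a27 and Slc22a28. A further 8 were detected in mTEC libraries alone, and 20 in some libraries of both subsets. Slc6a21 and Slco6d1 were detected in none, and Slco6d1 was at 0 in every library.

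**Figure D1:**
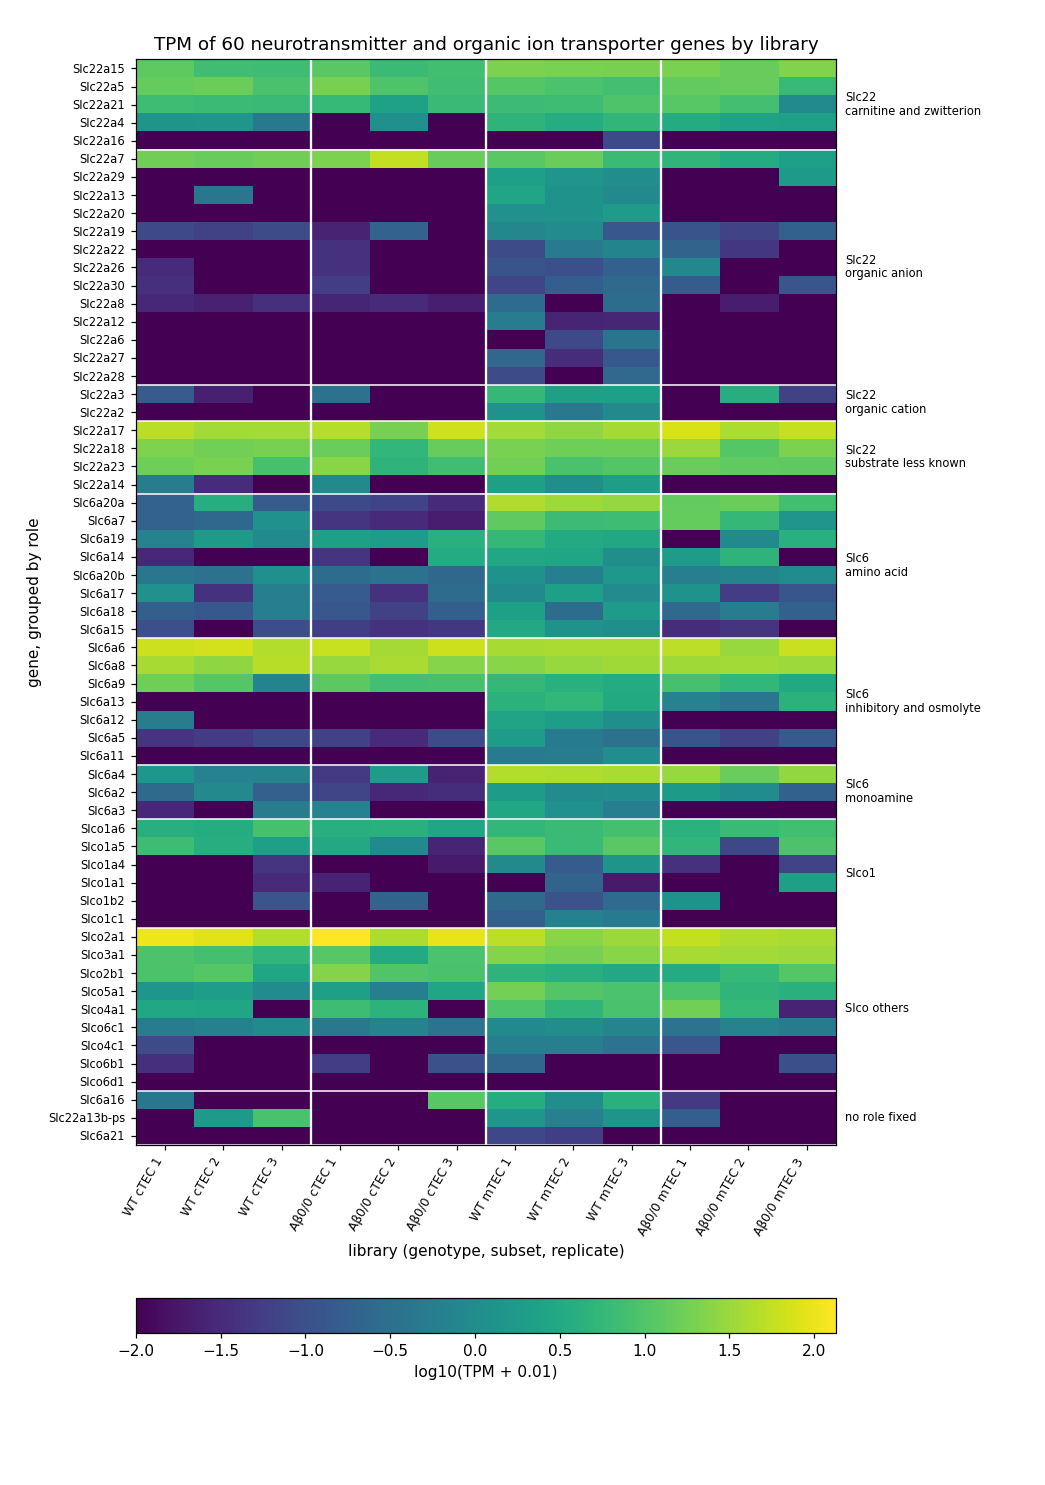
Colour gives log10(TPM + 0.01) of 60 of the 62 members (rows, grouped by role) in the 12 libraries (columns, by group and replicate). Dark cells at the bottom of the scale are values of 0 TPM; of all 62, 21 members exceeded 3 estimated counts in all 12 libraries, 11 in WT mTEC libraries alone.

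The summed level of the members varied less than their number. Their TPM added up to 426.7 ± 56.6 in WT mTEC, 397.5 ± 71.0 in Aβ0/0 mTEC, 348.5 ± 65.5 in WT cTEC and 355 ± 88.0 in Aβ0/0 cTEC (SD, n = 3). Neither genotype difference exceeded the spread (exact permutation p = 0.6 in mTEC and 0.9 in cTEC). Roles differed in where they were found. The 8 Slc6 amino acid carriers summed to 57.1 ± 14.0 TPM in WT mTEC, 24.8 ± 9.17 in Aβ0/0 mTEC and 4.60 ± 1.60 in WT cTEC (SD, n = 3). The 3 monoamine carriers summed to 45.6 ± 4.21, 25.97 ± 8.59 and 1.56 ± 0.158, respectively (SD, n = 3). Single genes led both sums, Slc6a20a with a mean of 36.1 of the 57.1 TPM of amino acid carriers in WT mTEC, and Slc6a4 with 42.7 of the 45.6 TPM of monoamine carriers there and 24.98 of 25.97 in Aβ0/0 mTEC. For both roles the WT mTEC libraries did not overlap with those of the other 2 groups (exact permutation p = 0.1 in each). The 8 carriers of inhibitory transmitters and osmolytes summed to 82.9 ± 2.16 TPM in WT mTEC and 108.1 ± 13.3 in WT cTEC (SD, n = 3; exact permutation p = 0.1).

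**Figure D2:**
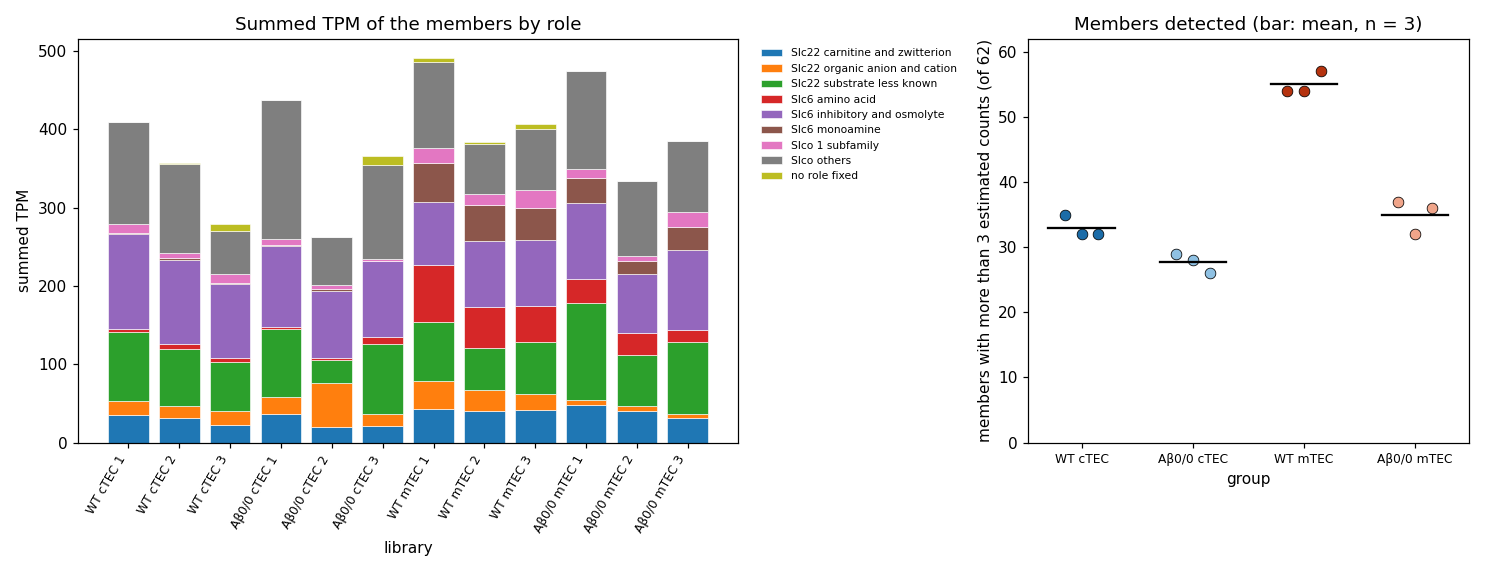
Left, the summed TPM of the members in each library, stacked by role; right, the number of the 62 members above 3 estimated counts, with a point for each library and a bar at the mean of 3. The 3 WT mTEC libraries hold 54 to 57 members and the other libraries 26 to 37, while the stacks overlap between groups.

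Every gene was tested with edgeR and p-values were adjusted over all genes tested (Benjamini-Hochberg, threshold 0.05). Fold changes are on the log2 scale. Between WT and Aβ0/0 mTEC, 48 of the 62 members had enough counts to be tested, and 9 passed, all higher in WT. Of all 18636 genes tested, 5.66% passed, 5.32% being higher in WT and 0.338% in Aβ0/0. At an unadjusted p under 0.05 there were 22 members (15.3% of all genes). The median log2 fold change over the 48 was 0.97, against 0.00257 over all genes tested. A member that passed the filter only through the WT libraries had to differ, so that the median describes these members and no others. The TPM of the 2 genotypes did not overlap for 22 members, 20 of them higher in WT (19.4% of all genes tested) and 2 in Aβ0/0 (6.33%). Leaving out 1 library changed the count of 9, which fell to 0 without WT replicate 1, 2 or 3 or without Aβ0/0 replicate 2 or 3, and was 14 without Aβ0/0 replicate 1. DESeq2 on the same libraries called 20 members, with 11.4% of all genes called. Of these, 18 were higher in WT, namely the 9 and Slc22a4, Slc22a7, Slc6a4, Slc6a5, Slc6a13, Slc6a16, Slc6a20a, Slco1a4 and Slco1c1, and 2 were higher in Aβ0/0, Slc22a17 and Slco3a1. DESeq2 on all 12 libraries called 6 (4.83% of all genes), 5 higher in WT and 1, Slco3a1, in Aβ0/0. With edgeR, 0 members passed with no filter on low counts (0.0989% of all genes), with a mean of at least 10 counts as filter (0.0578%) or when fitted on all 12 libraries (0.103%). With the replicate number as a block in edgeR's fit, 0 members and 0 of all genes passed. Each of the 9 then had an adjusted p of 0.230. Tests of single members given below are those of edgeR unless DESeq2 is named.

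Described here are 8 of those members, namely Slc6a3, Slc22a14, Slc6a12, Slc22a13, Slc22a20, Slc6a11, Slc22a2 and Slc6a15. Of these, all but Slc6a15 were at 0 counts in each of the 3 Aβ0/0 mTEC libraries, and Slc6a15 was at 1, 2 and 0. A pattern of at most 3 counts in every Aβ0/0 mTEC library and more than 3 in every WT mTEC library was seen in 11 members and in 1517 genes overall. Of the 1517 genes, 1046 were tested and 886 passed, and of the 11 members 10 were tested and 9 passed. The tested genes of this pattern met the filter through the WT libraries alone, and those that passed made up 84.1% of all genes called in this comparison. The other two were Slc6a16 (46 to 126 counts in WT mTEC, adjusted p = 0.0600) and Slco1c1 (7 to 44 counts, not tested). Slc6a16, an orphan member of its family, also had 339 counts in Aβ0/0 cTEC replicate 3, 8 in WT cTEC replicate 1 and 0 in the other 4 cTEC libraries. Since the Aβ0/0 libraries allow up to 3 counts each (0.109 CPM, counts scaled to the library total), folds against them are given as lower bounds. They use all libraries and move when 1 is left out. Without WT replicate 1 the bound was 27.4-fold for Slc6a15 and 15.9-fold for Slc22a13. Without WT replicate 3 it was 9.97-fold for Slc6a11. Aire itself, at 626, 275 and 243 TPM in WT mTEC and 111, 56.0 and 65.2 in Aβ0/0 mTEC, was higher in WT (log2 fold change 2.18, adjusted p = 0.0352). The granulocyte and enterohepatic markers given above were also lower in Aβ0/0 than in WT mTEC, without overlap of their sums. So were the 6 endothelial markers (27.2 to 37.0 TPM in WT and 12.6 to 17.8 in Aβ0/0) and the 8 cTEC markers (708.8 to 838.8 and 332.1 to 595.7). The summed TPM of the 9 mTEC markers was higher in Aβ0/0 (23830 to 33600 against 17920 to 22950). Aire is among these 9 and was lower, so that the sum does not give the direction of each marker. The part of Aire and of these markers in the 9 calls was not tested.

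**Figure D3:**
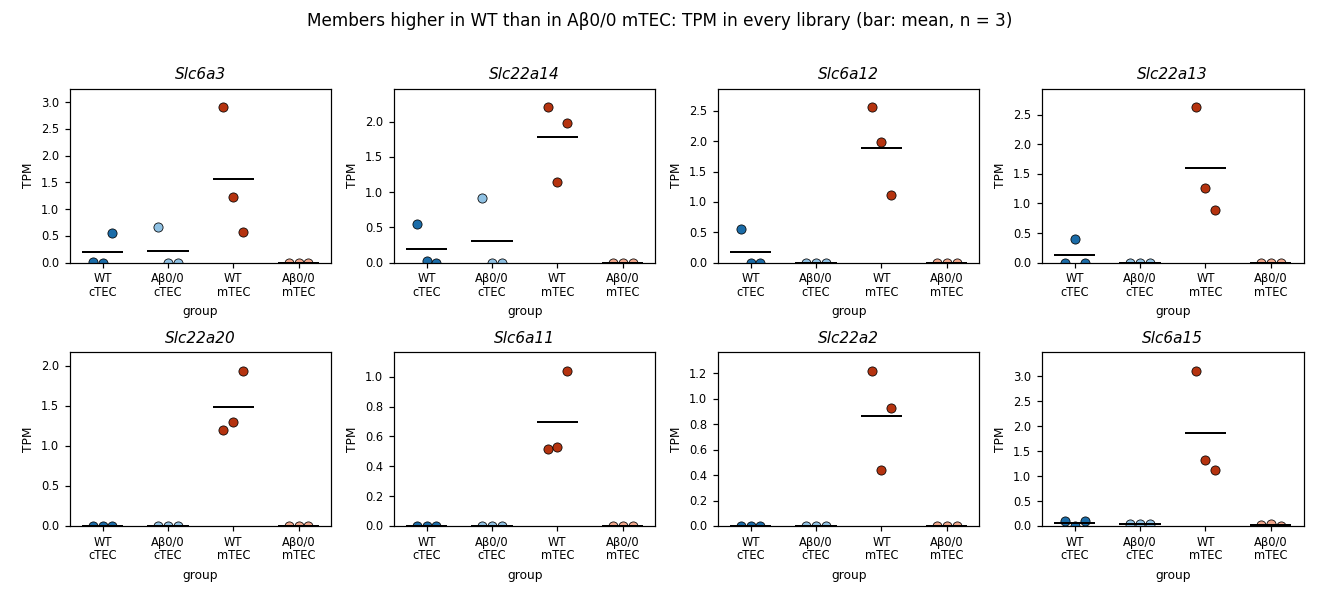
TPM (y axis, from 0) of 8 of the 9 members that were higher in WT than in Aβ0/0 mTEC, with a point for each library in the 4 groups and a bar at the mean of 3. Every Aβ0/0 mTEC point lies at 0 TPM or, for Slc6a15, at most at 0.0311, and single cTEC libraries hold Slc6a3, Slc22a14, Slc6a12 and Slc22a13.

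Between WT and Aβ0/0 cTEC, 28 members were tested and edgeR called 0, with 0.0194% of all 15432 genes called. At an unadjusted p under 0.05 there were 3 (2.16% of all genes), Slc6a7, Slc6a2 and Slc6a20a, each with an adjusted p of 1. DESeq2 called 1 member, Slc22a13b-ps, on the same libraries (0.725% of all genes) and 4 when fitted on all 12 (1.76%), with Slc6a2, Slc6a7 and Slc6a20a added, all 4 higher in WT. The TPM did not overlap for 5 members higher in WT (3.46%) and 1 in Aβ0/0 (3.47%). Between mTEC and cTEC of WT mice, 47 members were tested and 20 passed. Of these, 19 were higher in mTEC (18.0% of all genes tested) and 1 in cTEC (8.81%). The count rose to 31 without WT cTEC replicate 3, and was 14 to 24 without any other library. With each library left out in turn, 11 of the 20 always passed. Slc22a3, Slc6a5, Slc6a7 and Slc6a15 were lost without WT mTEC replicate 1. Slc6a19, Slc22a15 and Slco1a5 were lost without WT mTEC replicate 1, 2 or 3, the last 2 also without WT cTEC replicate 2, and Slco1a4 without WT cTEC replicate 1 or WT mTEC replicate 1 or 3. When fitted on all 12 libraries, edgeR did not call Slc22a3, Slc22a29, Slc6a14, Slc6a19, Slco1a4 and Slco1a5 (adjusted p 0.0606 to 0.588) and DESeq2 did not call Slc22a2, Slc22a20, Slc22a29, Slc6a11, Slc6a19 and Slco1a5 (0.0502 to 0.502). Slc22a3 was not called by this DESeq2 fit either. On protein coding transcripts Slc22a15 and Slco1a5 were lost. Between mTEC and cTEC of Aβ0/0 mice, 31 were tested and 4 passed, all higher in mTEC (3.45% of all genes, with 2.15% higher in cTEC), while 9 were at an unadjusted p under 0.05 (17.8%). DESeq2 called 12 on all 12 libraries (20.3% of all genes) and 9 on the same libraries (17.1%), and edgeR called 9 on all 12 (9.35%) and 4 with no filter (3.35%). In each of these 4 fits 1 member, Slc22a7, was higher in cTEC and the others in mTEC. The count of 4 fell to 2 without cTEC replicate 1, cTEC replicate 3 or mTEC replicate 1 of Aβ0/0, while Slc6a20a and Slco3a1 passed without any library. A test of whether the genotype effect differed between the subsets called 0 of 48 members with edgeR (0.0103% of all genes), with 8 at an unadjusted p under 0.05 (6.90%), and DESeq2 called 1, Slc6a15 (1.98%). Comparisons share groups, so that they are not independent of each other. Tested members with at most 3 counts in every cTEC library of a subset comparison met the filter through mTEC alone and had to differ. Among them were Slc6a11, Slc6a13, Slc6a14, Slc22a2, Slc22a20, Slc22a29 and Slco1a4 in WT, and Slc6a7 and Slc6a13 in Aβ0/0 mice.

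Among the monoamine carriers, Slc6a4 encodes the serotonin transporter and lies at chr11:76998603-77032340 (GRCm38, plus strand). It had the highest mean TPM of all members in WT mTEC, at 44.9, 43.6 and 39.6 TPM in the 3 libraries. In Aβ0/0 mTEC it lay at 31.0, 15.3 and 28.7, and in cTEC of either genotype at 0.0145 to 1.81. The mTEC libraries were thus above all cTEC libraries. In WT mice the difference passed (log2 fold change 5.56 ± 0.37 SE, adjusted p = 0.000223). In Aβ0/0 mice it did not (5.50 ± 1.55 SE, adjusted p = 0.0922, and log2 9.94 with adjusted p = 0.00608 without Aβ0/0 cTEC replicate 2), where cTEC replicate 2 held 106 counts and replicates 1 and 3 held 2 and 1. WT mTEC libraries lay above Aβ0/0 mTEC libraries without passing the test (log2 fold change 0.73 ± 0.24 SE, adjusted p = 0.177).

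The dopamine transporter gene Slc6a3 had 164, 118 and 51 counts in WT mTEC, or 2.91, 1.23 and 0.576 TPM, and 0 in every Aβ0/0 mTEC library. It was at least 39.2-fold higher in WT (adjusted p = 0.0384), a bound that rested on WT replicate 1 and was 23.9-fold without it. In cTEC it was found in WT replicate 3 with 47 counts and in Aβ0/0 replicate 1 with 42, and in the other 4 libraries at 0 or 1. Slc6a2, the noradrenaline transporter gene, was at 1.83, 0.972 and 1.03 TPM in WT mTEC and 1.75, 1.01 and 0.180 in Aβ0/0 mTEC, which overlapped. In cTEC its counts were 24, 112 and 26 in WT and 7, 3 and 4 in Aβ0/0. These did not overlap, but the difference did not pass (log2 fold change 3.60 ± 1.29 SE, adjusted p = 1, and log2 2.72 without WT replicate 2).

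Carriers of inhibitory transmitters and osmolytes fell into abundant and rare genes. Slc6a6, the taurine carrier, was among the 5 members with the highest mean TPM in all 4 groups, at 44.3 to 69.0 TPM in WT cTEC, 37.4 to 64.9 in Aβ0/0 cTEC, 39.0 to 39.9 in WT mTEC and 30.6 to 60.6 in Aβ0/0 mTEC. Slc6a8, the creatine carrier, lay between 23.7 and 49.2 TPM in all 12 libraries. Between 25.3% and 41.2% of its counts in a group fell on transcripts annotated as protein coding, against 92.6% to 95.8% for Slc6a6. Neither gene passed in any comparison.

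Carriers of GABA and betaine were rare. Slc6a13, a GABA and taurine carrier of liver and kidney, was at 4.52, 5.39 and 3.22 TPM in WT mTEC, at 0.659, 0.401 and 4.46 in Aβ0/0 mTEC, and at 0 counts in all 6 cTEC libraries. Aβ0/0 mTEC replicate 3 thus lay among the WT libraries in TPM, though not in counts (56 against 152 to 272), and the genotypes did not differ by the test (log2 fold change 2.48 ± 0.90 SE, adjusted p = 0.239, and log2 3.17 without Aβ0/0 replicate 3 or 3.97 on protein coding transcripts). Against cTEC, mTEC were at least 62.8-fold higher in WT (adjusted p = 0.00248) and at least 12.8-fold higher in Aβ0/0 mice (adjusted p = 0.0435, and 0.135 with the pool of mice as a block). The latter bound was 7.94-fold without mTEC replicate 3, and the call was lost without any 1 of the 6 libraries (adjusted p 0.114 to 0.173). Slc6a12, the betaine and GABA carrier, had 52, 108 and 59 counts in WT mTEC and 0 in every Aβ0/0 mTEC library, at least 23.2-fold higher in WT (adjusted p = 0.0352). One cTEC library, WT replicate 1, held 7 counts of it. Slc6a11, a GABA carrier of glia and the gene whose CG-rich promoter is printed above, had 28, 29 and 74 counts in WT mTEC and 0 in the other 9 libraries. It was at least 14.0-fold higher in WT than in Aβ0/0 mTEC (adjusted p = 0.0352), and at least 13.7-fold higher in WT mTEC than in WT cTEC (adjusted p = 0.00758, and 0.0529 with the block).

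The 2 glycine carriers had no common pattern. Slc6a5, of inhibitory neurons, had 192, 97 and 62 counts in WT mTEC, 14, 10 and 21 in Aβ0/0 mTEC and 4 to 14 in cTEC. WT mTEC libraries were above all others, which passed against WT cTEC (log2 fold change 3.92 ± 0.94 SE, adjusted p = 0.0169, and 0.0784 with the block; log2 fold change 3.07 without mTEC replicate 1) but not against Aβ0/0 mTEC (2.92 ± 0.99 SE, adjusted p = 0.199, and log2 2.08 without WT replicate 1). Slc6a9 was at 3.20 to 16.7 TPM in 11 libraries and at 0.687 in WT cTEC replicate 3. Its exons overlap those of Ccdc24 on the opposite strand by 1429 bases, and the sources used here do not say whether reads were assigned by strand, so that reads of the 2 genes may not be told apart there.

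Of the amino acid carriers, Slc6a20a had the highest mean TPM in mTEC of both genotypes. It encodes an imino acid carrier of kidney and intestine. It was at 43.8, 35.2 and 29.5 TPM in WT mTEC, at 13.7, 15.6 and 7.49 in Aβ0/0 mTEC and at 0.0209 to 0.188 in 5 of the 6 cTEC libraries. WT cTEC replicate 2 was apart from these with 3.68 TPM, or 215 counts against 10 and 14 in the other WT cTEC libraries. Slc6a20a was higher in mTEC than in cTEC both in WT (log2 fold change 4.88 ± 1.00 SE, adjusted p = 0.00939) and in Aβ0/0 mice (7.75 ± 0.93 SE, adjusted p = 0.00544). Without WT cTEC replicate 2 the log2 fold change in WT was 7.24. DESeq2 on the same libraries did not call Slc6a20a between the subsets of WT mice. Between WT and Aβ0/0 mTEC the libraries did not overlap, but the difference did not pass (log2 fold change 1.42 ± 0.35 SE, adjusted p = 0.0732). In cTEC the same contrast gave a log2 fold change of 4.28 ± 1.57 SE (adjusted p = 1), and 1.89 without WT cTEC replicate 2.

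Its neighbour Slc6a20b, at chr9:123590800-123632565 beside Slc6a20a at chr9:123634770-123678885 (both minus strand), was at 0.586 to 1.58 TPM in WT mTEC and 0.236 to 1.18 in the other groups. The copies share 1044 aligned bases at 93.9% identity, and Slc6a20b exons overlap Sacm1l on the opposite strand by 1800 bases, so that its low level is uncertain. Counts of both copies together were 2026, 2709 and 2297 in WT mTEC, 714, 1295 and 579 in Aβ0/0 mTEC and 37 to 263 in cTEC.

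The proline carrier Slc6a7 was at 13.3, 6.64 and 7.10 TPM in WT mTEC and at 14.2, 5.53 and 1.48 in Aβ0/0 mTEC, with overlap between the genotypes. In cTEC it had 10, 17 and 100 counts in WT and 2, 2 and 1 in Aβ0/0. Thus the WT cTEC libraries were all above the Aβ0/0 ones, most of all WT replicate 3, but the difference did not pass (adjusted p = 1). The bound was at least 16.7-fold higher in WT with all libraries and 5.24-fold without WT replicate 3. Slc6a7 was higher in mTEC than in cTEC in WT (log2 fold change 3.80 ± 0.92 SE, adjusted p = 0.0175, with a log2 fold change of 5.59 without cTEC replicate 3) and at least 198-fold higher in Aβ0/0 mice (adjusted p = 0.0141, and up to 0.0591 without cTEC replicate 1, 2 or 3 or mTEC replicate 1). This bound was 109.3-fold without mTEC replicate 1. Slc6a7 had the smallest p of the members in the test of a different genotype effect between subsets (adjusted p = 0.444).

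Slc6a15, a carrier of branched-chain amino acids and proline in brain, had 159, 91 and 100 counts in WT mTEC and 0 to 5 in the 9 other libraries. It was at least 40.8-fold higher in WT than in Aβ0/0 mTEC (adjusted p = 0.0366), and higher than in WT cTEC (log2 fold change 5.28 ± 1.23 SE, adjusted p = 0.0154). The latter log2 fold change was 9.88 on protein coding transcripts, which held 0% of its cTEC counts, and 4.66 and 6.12 without WT cTEC replicate 2 and 3. Slc6a14, a broad carrier of neutral and cationic amino acids in lung and colon, had 158, 257 and 98 counts in WT mTEC against 1, 0 and 0 in WT cTEC. This was at least 54.6-fold higher in mTEC (adjusted p = 0.00282). In Aβ0/0 mice single libraries decided its level, with 114, 454 and 0 counts in mTEC and 2, 0 and 298 in cTEC. Slc6a19, the main neutral amino acid carrier of intestine and kidney, was at 5.60, 3.28 and 2.96 TPM in WT mTEC and 0.675 to 1.74 in WT cTEC, and passed that comparison (log2 fold change 2.79 ± 0.69 SE, adjusted p = 0.0188). In cTEC 0% (WT) and 1.58% (Aβ0/0) of its counts were on protein coding transcripts, against 59.7% in WT mTEC, and the log2 fold change was 10.6 on these transcripts alone. Slc6a17 and Slc6a18 were at 0.0281 to 2.21 TPM over all libraries and passed in no comparison.

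**Figure D4:**
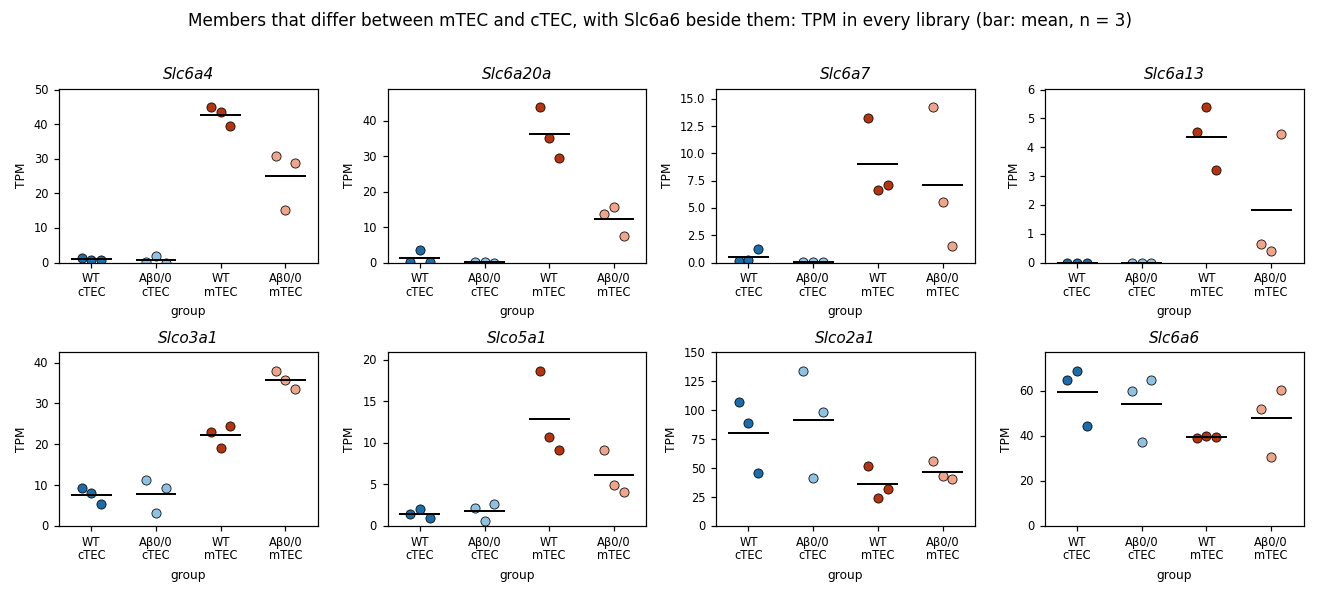
TPM (y axis, from 0) of 8 members, with a point for each library in the 4 groups and a bar at the mean of 3. Slc6a4, Slc6a20a, Slc6a7, Slc6a13, Slco3a1 and Slco5a1 are higher in the 3 WT mTEC than in the 3 WT cTEC libraries, Slco2a1 has a higher mean in cTEC with overlap, and Slc6a6 did not pass any test.

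The organic cation carriers Slc22a2 and Slc22a3 lie near each other on chromosome 17 and take up amines and drugs in kidney and other tissues. Slc22a2, of the kidney, had 41, 25 and 49 counts in WT mTEC and 0 in the other 9 libraries, at least 13.0-fold higher than in Aβ0/0 mTEC (adjusted p = 0.0352). Against WT cTEC the bound was 12.7-fold (adjusted p = 0.00735, and 0.0541 with the block). Its transcript shares stretches with another member, so that reads may have been split, but it was at 0 outside WT mTEC.

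Slc22a3 departed from this pattern. It had 320, 213 and 193 counts in WT mTEC, 0, 366 and 4 in Aβ0/0 mTEC, 8, 1 and 0 in WT cTEC and 21, 0 and 0 in Aβ0/0 cTEC. Aβ0/0 mTEC replicate 2 thus exceeded every WT library in counts, while replicates 1 and 3 were near 0. Its exons overlap Plg on the opposite strand by 420 bases. WT mTEC were higher than WT cTEC (log2 fold change 6.18 ± 1.29 SE, adjusted p = 0.00979), with a log2 fold change of 8.67 without WT cTEC replicate 1.

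Organic anion carriers were mostly rare. Slc22a7, an organic anion carrier of liver and kidney, made up most of their summed TPM. It was at 17.3, 14.7 and 17.4 TPM in WT cTEC, 20.5, 56.3 and 14.8 in Aβ0/0 cTEC, 11.9, 15.5 and 6.58 in WT mTEC and 4.94, 3.45 and 2.13 in Aβ0/0 mTEC. The Aβ0/0 mTEC libraries were below all others, and Aβ0/0 cTEC replicate 2 was above all others. No comparison passed in edgeR's fit of the compared groups, with an adjusted p of 0.214 between WT and Aβ0/0 mTEC (log2 fold change 1.60 ± 0.56 SE) and 0.0524 between mTEC and cTEC of Aβ0/0 mice (-3.04 ± 0.72 SE, and log2 -2.02 without cTEC replicate 2). DESeq2 on the same libraries called both, with an adjusted p of 0.0153 for the first and 0.000228 for the second, and edgeR called the second when fitted on all 12 libraries (0.0109) or with no filter (0.0430).

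Slc22a20, an anion carrier of the olfactory lining, had 36, 66 and 91 counts in WT mTEC and 0 in the other 9 libraries. It was at least 20.2-fold higher in WT than in Aβ0/0 mTEC (adjusted p = 0.0352), and at least 19.7-fold higher in WT mTEC than in WT cTEC (adjusted p = 0.00571). Its promoter, printed above, held few CG pairs. Slc22a13, a carrier of urate and nicotinate in kidney, had 84, 67 and 45 counts in WT mTEC and 0 in Aβ0/0 mTEC, at least 22.5-fold higher in WT (adjusted p = 0.0352). It is 99.3% identical to the pseudogene Slc22a13b-ps over 681 aligned bases, so that its level is uncertain. Counts of the pair together were 117, 91 and 92 in WT mTEC, 4, 0 and 0 in Aβ0/0 mTEC, 0, 67 and 297 in WT cTEC and 0 in every Aβ0/0 cTEC library. The joint counts of WT cTEC thus ranged from 0 to above every mTEC library.

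Of the 10 members on chromosome 19, 9 lie in the stretch that holds Slc22a6, Slc22a8, Slc22a12 and a row of mouse copies, and none was above 2.115 TPM in any library. Slc22a6, Slc22a8 and Slc22a12, of the kidney, had at most 41, 25 and 13 counts. Slc22a19 had 29, 60 and 11 counts in WT mTEC and at most 19 in the others, and Slc22a26, Slc22a28 and Slc22a30 had at most 30, 13 and 16. Slc22a29 had 27, 60 and 23 counts in WT mTEC and 0 in cTEC, at least 11.4-fold higher in mTEC (adjusted p = 0.00774, and 0.0557 with the block). In Aβ0/0 mTEC it had 0, 0 and 57. It is 96.8% identical to Slc22a27 over 2088 bases, and reads may have been split between them. Counts of both were 34, 61 and 29 in WT mTEC. Slc22a22, on another chromosome, had 3, 28 and 40 counts in WT mTEC and at most 7 elsewhere.

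Of the 5 carriers of carnitine and zwitterions, Slc22a5, Slc22a21 and Slc22a15 were detected in all 12 libraries. Slc22a5, the main carnitine carrier, was at 6.27 to 19.4 TPM in all 12 libraries, and its copy Slc22a21 at 0.925 to 11.3. Slc22a15 was at 20.7, 20.1 and 19.4 TPM in WT mTEC and 12.7, 7.26 and 7.09 in WT cTEC, without overlap (log2 fold change 0.93 ± 0.25 SE, adjusted p = 0.0266, and 0.0514 with the block). On protein coding transcripts, which held 41.4% of its counts in WT mTEC and 62.8% in WT cTEC, the call was lost (log2 fold change 0.36, adjusted p = 0.476). Slc22a4, known for ergothioneine uptake, was at 3.61 to 5.18 TPM in WT mTEC and 2.30 to 3.40 in Aβ0/0 mTEC and did not pass (log2 fold change 1.83 ± 0.77 SE, adjusted p = 0.324, and log2 2.88 on protein coding transcripts). In cTEC it had 20, 69 and 25 counts in WT and 0, 15 and 0 in Aβ0/0. Slc22a16, of the testis, had 4 counts in WT mTEC replicate 3 and 0 elsewhere.

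Slc22a17, the receptor of lipocalin 2, had the highest mean TPM of all members in Aβ0/0 mTEC. It was at 75.9, 41.0 and 59.1 TPM there, at 35.5, 27.3 and 37.9 in WT mTEC and at 19.4 to 68.3 in cTEC. Aβ0/0 mTEC were thus above WT mTEC in each library, but the difference did not pass (log2 fold change -0.89 ± 0.21 SE, adjusted p = 0.0631), although DESeq2 on the same libraries called it (adjusted p = 0.00262). Slc22a18, an imprinted gene, was at 5.46 to 32.1 TPM and Slc22a23 at 4.80 to 24.9 in the 12 libraries, with no call by edgeR. Slc22a14, known from male germ cells, had 78, 66 and 88 counts in WT mTEC and 0 in Aβ0/0 mTEC, at least 25.8-fold higher in WT (adjusted p = 0.0352). Among cTEC it was seen in WT replicate 1 with 13 counts and Aβ0/0 replicate 1 with 15, and at 0 or 1 in the others.

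Among the Slco genes, Slco2a1 encodes the prostaglandin transporter. It had the highest mean TPM of the members in both cTEC groups, at 106.8, 88.8 and 45.7 TPM in WT cTEC and 134.3, 41.8 and 98.7 in Aβ0/0 cTEC. In mTEC it was at 51.9, 24.5 and 32.3 in WT and 56.2, 43.0 and 40.8 in Aβ0/0. The TPM of cTEC and mTEC overlapped through cTEC replicate 3 in WT, but in counts the test called it higher in WT cTEC than in WT mTEC (log2 fold change -0.95 ± 0.24 SE, adjusted p = 0.0204). This call was lost without cTEC replicate 1, mTEC replicate 2 or mTEC replicate 3 of WT (adjusted p up to 0.0999). Fibroblast markers were higher in cTEC too, as given above, and endothelial markers summed to 28.8 to 76.5 TPM in WT cTEC and 27.2 to 37.0 in WT mTEC. Their part in the level of Slco2a1 was not tested.

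Slco3a1, a carrier of prostaglandins and other anions, was higher in mTEC than in cTEC in both genotypes. It was at 23.1, 19.1 and 24.4 TPM in WT mTEC, 38.1, 35.8 and 33.5 in Aβ0/0 mTEC, 9.30, 8.08 and 5.29 in WT cTEC and 11.2, 3.27 and 9.24 in Aβ0/0 cTEC. The log2 fold change between subsets was 1.79 ± 0.23 SE in WT (adjusted p = 0.00158) and 2.59 ± 0.38 SE in Aβ0/0 mice (adjusted p = 0.0108). Its levels in Aβ0/0 mTEC were above those in WT mTEC in all libraries, without passing (log2 fold change -0.99 ± 0.24 SE, adjusted p = 0.0646, 0.0331 without Aβ0/0 replicate 1 and 0.00413 with DESeq2 on the same libraries). Slco5a1, whose substrates are little known, went the other way between genotypes, at 18.7, 10.7 and 9.14 TPM in WT mTEC and 9.11, 4.95 and 4.13 in Aβ0/0 mTEC (log2 fold change 1.03 ± 0.38 SE, adjusted p = 0.242). It was at 0.605 to 2.68 TPM in cTEC, below all mTEC libraries (adjusted p = 0.00110 in WT and 0.117 in Aβ0/0).

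Slco4a1, a thyroid hormone carrier, had 0 counts in replicate 3 of both cTEC groups and 1 in replicate 3 of Aβ0/0 mTEC, but 124 to 952 in the other 9 libraries. Of the Slco1 genes of liver and brain barrier, Slco1a4 had 54, 16 and 136 counts in WT mTEC and 0, 0 and 3 in WT cTEC, at least 22.1-fold higher in mTEC (adjusted p = 0.0267) and 13.4-fold by the same bound without mTEC replicate 3. Slco1a5, which shares 1321 aligned bases with Slco1a4 at 90.2% identity, had 470, 451 and 761 counts in WT mTEC and 236, 205 and 126 in WT cTEC (log2 fold change 1.46 ± 0.42 SE, adjusted p = 0.0343, and 0.0651 with the block). In Aβ0/0 mTEC it had 236, 2 and 533. Slco1b2, the main bile acid carrier of this family in liver, was at 0 to 1.28 TPM and Slco1a1 at 0 to 2.19 TPM in all libraries. Slco1a6 was at 2.62 to 8.44 TPM in all 12 libraries, and Slco2b1, a carrier of steroid sulphates, at 2.73 to 22.9. Slco4c1, of the kidney, had 47, 80 and 46 counts in WT mTEC, 11, 0 and 0 in Aβ0/0 mTEC and at most 6 in cTEC, without a call by edgeR when all libraries were kept. Slco6c1, known from testis, was at 0.361 to 1.07 TPM and the pseudogene Slco6b1 at 0 to 0.224.

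Genes that make, store or work beside these substrates were counted from lists of partners. Of 13 genes of transmitter synthesis and breakdown, 4 were higher in WT than in Aβ0/0 mTEC, namely Hdc, Gad1, Dbh and Tph2, and 0 were lower, where 5.32% of all genes tested were higher in WT. As for the members, the number of all genes passing in this comparison depended on the setting. It was 1054 here, 1054 with RLE size factors, 937 with protein coding transcripts, 2457 with DESeq2 on the same libraries and 964 with DESeq2 on all 12, but 27 with no filter, 20 with edgeR on all 12, 11 with a mean of at least 10 counts and 0 with the replicate block. Hdc, which makes histamine, was at 376.4, 250.2 and 225.4 TPM in WT mTEC and 72.4, 53.9 and 50.7 in Aβ0/0 mTEC (log2 fold change 2.19 ± 0.21 SE, adjusted p = 0.0352). The 6 granulocyte markers summed to 1382 to 1961 TPM in WT and 187 to 421 in Aβ0/0 mTEC, and their part in the change of this list was not tested. The enzyme genes of serotonin, Tph1 and Tph2, were at 11.5 to 20.6 and 0.286 to 1.18 TPM in WT mTEC, beside 39.6 to 44.9 for the carrier Slc6a4. In Aβ0/0 mTEC, Tph1 was at 3.73, 0.0213 and 0.0297 TPM and did not pass (adjusted p = 0.357), and Tph2 was at 0. Of 7 vesicular transporters, 2 were higher in WT mTEC, Slc18a1 and Slc17a6. Of 6 partner and scaffold proteins, Cltrn, which escorts amino acid carriers to the membrane, and the scaffold Pdzk1 were higher in WT mTEC, and both were at 0 TPM in every Aβ0/0 mTEC library. Cltrn, Pdzk1 and Tph2 thus met the count filter through the WT libraries alone and had to differ, as stated above for members. The lists of 13 export pumps and 6 excitatory amino acid and choline carriers held 0 called genes in this comparison with edgeR, as did every list between WT and Aβ0/0 cTEC.

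Between mTEC and cTEC of WT mice, 7 of the 13 synthesis and breakdown genes were higher in mTEC (18.0% of all genes) and 1 in cTEC (8.81%), the GABA-degrading Abat. It was at 46.7, 37.3 and 20.04 TPM in WT cTEC and 2.26, 2.26 and 1.68 in WT mTEC (log2 fold change -3.93 ± 0.39 SE, adjusted p = 0.000647). Of the vesicular carriers 5 of 7 were higher in mTEC, and of the export pumps 3 of 13 were higher in mTEC and 1 in cTEC, against the same shares of all genes. The latter was Slc47a1, which exports the substrates of organic cation carriers, at 41.6, 38.4 and 25.9 TPM in WT cTEC and 2.37, 2.52 and 0.522 in WT mTEC (log2 fold change -4.16 ± 0.56 SE, adjusted p = 0.00213). Thus the uptake genes Slc22a2 and Slc22a3 and this export gene had opposite subsets of higher level.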

How the data were processed

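Poly-A RNA of sorted TEC was amplified (Takara SMART-Seq v4), sequenced on an Illumina HiSeq as paired-end reads, and quantified by the authors with kallisto 0.43 on mm10. The submitters' processing notes also name bcl2fastq 2.20.0, Trim Galore and DESeq2. The deposited estimated counts and the deposited TPM are kallisto's values per transcript, made by the authors without pooling of libraries. The deposited log2 values (rlog, DESeq2) served to list the genes only.

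Of 109282 transcripts, 107987 matched GENCODE M21 (GRCm38), and 1295, with 0.45% to 0.512% of counts, were left out. Counts were summed per gene, rounded and fitted with edgeR 4.0.16 (quasi-likelihood, robust, TMM, filterByExpr) in R 4.3.3, using the 6 libraries of a comparison, or all 12 for the interaction. Total counts of 21710319 to 36139815 limit precision at low counts, and floors and bounds cover counting error only. Bounds use CPM by library total. Fits were tested on simulated data. DESeq2 1.42.0, Python 3.11.15, BLAST 2.17.0 and matplotlib 3.10.9 were also used.

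The members, roles, partner lists and marker lists were chosen with earlier results of these data known. Named were members that passed (at most 12 a comparison and direction), the 5 highest by TPM in each group and, where fewer than 3 passed, the 3 smallest p. Values of other members were added after seeing them. The study lists cTEC and mTEC yields of each sorting, so same-numbered libraries of 1 genotype were taken as 1 pool. Their deviations correlated at 0.219, 0.0381 and 0.0822 in WT, and 0.240, 0.0912 and 0.0546 in Aβ0/0. Same-numbered libraries of different genotypes, which cannot share mice, gave 0.232, 0.0799 and 0.0526 in mTEC and 0.245, -0.0391 and 0.0576 in cTEC. The correlation thus does not mark a shared pool. For single members the block was printed where it changed a call between subsets. Alternatives were normalization, filters, tools, libraries and protein coding transcripts. A few single genes that entered the fits and counts are not reported here.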

Additional observations from a re-analysis of the deposited data

How the results depend on the processing

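Calls between WT and Aβ0/0 mTEC depended most on the processing. The 9 calls became 20 with DESeq2 on the same libraries (2 of them higher in Aβ0/0) and 6 with DESeq2 on all 12 (1 higher in Aβ0/0). They became 0 with edgeR on all 12, with a mean of at least 10 counts as filter, or with no filter, settings under which 0.103%, 0.0578% and 0.0989% of all genes passed. Without 1 library they ranged from 0 to 14. RLE size factors and protein coding transcripts left 9. The study lists yields of both genotypes under each replicate number, but it does not state whether they were sorted together. With the replicate block 0 of 9 passed. Between WT and Aβ0/0 cTEC, 0 calls became 1 with DESeq2 on the same libraries and 4 with DESeq2 on all 12, and stayed 0 under the other settings. Between mTEC and cTEC of WT mice the 20 calls ranged from 14 to 31 without 1 library, from 14 to 30 under the other settings, and were 14 with the replicate block. In Aβ0/0 mice the 4 calls became 12 with DESeq2 on all 12 libraries, 9 with DESeq2 on the same libraries and 9 with edgeR on all 12, each with Slc22a7 higher in cTEC, ranged from 2 to 3 without 1 library, and were 3 with the block. For the interaction, 0 became 1 with DESeq2. The calls between subsets that the block ended are given with it above, and it changed no other call between subsets.

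At a threshold of 10 counts, WT cTEC held 29.3, Aβ0/0 cTEC 24, WT mTEC 51.7 and Aβ0/0 mTEC 31.7 members. With protein coding transcripts alone, summed TPM was 245.1, 254, 330.4 and 298.1, in the same order. Over the named members and settings, 335 values kept their direction and side of the threshold, 120 kept direction but no longer passed, 4 passed anew, and none reversed. Members under about 10 counts are not resolved at this depth. The cause of these shifts was not tested.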
